A study of Mus musculus with 18 samples.

Results

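The Serpin genes encode the serpin family of protease inhibitors. The members described here were all protein-coding genes on chromosomes 1 to 19 of the mouse genome (mm10, GENCODE annotation) whose symbol is Serpin followed by a clade letter from a to i and a number, 60 of 20807 autosomal protein-coding genes. They were chosen by name alone, without any measured value. Pseudogenes with such symbols, 7 in all and Serpina3h and the polymorphic pseudogene Serpinb10 among them, were not members. The 60 genes fall into 12 loci when genes less than 500 kb apart are joined: 23 clade a genes in a single cluster on chromosome 12, 8 genes of clades c to g scattered over 7 loci, 26 clade b genes in a cluster of 11 on chromosome 1 and a cluster of 15 on chromosome 13, and Serpinh1, Serpini1 and Serpini2.

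Serpins carry an exposed reactive loop that a target protease cleaves, after which the inhibitor changes shape and traps the protease in a covalent complex. Hepatocytes secrete many clade a and clade c to g serpins into the plasma, where they restrain coagulation, fibrinolysis, complement and neutrophil proteases. Clade b serpins mostly remain inside cells and protect leukocytes, keratinocytes and other cells from their own or leaked proteases. The nuclear lamina is the filament layer under the inner nuclear membrane, and lamin B1 is one of its main proteins. Trimethylation of lysine 9 on histone H3 (H3K9me3) marks heterochromatin, and Foxa2 is a forkhead transcription factor that opens chromatin at liver genes.

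Chromatin immunoprecipitation with sequencing was performed on snap-frozen whole liver of C57BL/6 mice, male by the study's methods. Lamin B1 and H3K9me3 were profiled in wild-type mice aged 3 months (young) and 21 months (old), with 2 replicates of each, and Foxa2 in wild-type littermates (WT) and Zmpste24 null mutants (Zmpste24 KO) aged 12 weeks, with 3 replicates of each. Zmpste24 is the metalloprotease that matures prelamin A, and its loss in every tissue gives a model of premature ageing rather than of a change in hepatocytes alone. No treatment was given by the labels. Binding in hepatocytes and in other liver cells cannot be told apart in whole tissue, and no transcript level was at hand to check the tissue against its markers.

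The values are 6 lists of called regions. The lamin B1 and H3K9me3 lists held 1624 and 2784 regions in young livers and 1519 and 2496 in old livers, in steps of 10 kb, and the Foxa2 lists held 4960 sites in WT and 8177 in Zmpste24 KO livers. The deposited H3K9me3 lists hold fewer regions than the study's text gives for this mark at either age, so a stretch without H3K9me3 below is one without a region in these lists. Replicates had been merged before calling, so no spread between replicates exists for any value below and no test was made. The depth behind a single region is unknown, because the lists carry neither reads nor scores. Each count of Serpin genes is instead set beside the share of all 20807 genes with the same call. Neighbouring genes lie in the same domain or near the same Foxa2 site and are not independent of each other, so counts are also given by locus.

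The lamin B1 lists divided the Serpin genes by clade, with clades a and c to g mostly inside domains in old livers and clade b outside (the plot of shares by gene set). In old livers the start site of 22 of the 31 genes of clades a and c to g lay in a lamin B1 domain, against 65.7% of all genes, while none of the 26 clade b genes did. In young livers the counts were 3 of 31 and 2 of 26, against 38.0% of all genes. Start sites inside a domain in old livers only numbered 19 of 31 in clades a and c to g and 0 of 26 in clade b (32.2% of all genes), start sites inside at both ages 3 and 0 (33.5%), and start sites inside in young livers only 0 and 2 (4.49%). By locus, each of the 8 loci of clades a and c to g had a start site in an old domain and 3 had one in a young domain. Counted by any overlap with the gene body, the calls were the same genes, 3 and 22 of 31 in young and old livers and 2 and 0 of 26 (40.9% and 68.3% of all genes). The share of clades a and c to g in old livers was close to that of all genes. Their low count in young livers came from the chromosome 12 cluster, where 0 of 23 clade a genes were inside, while 3 of 8 genes of clades c to g (37.5%) were inside, close to the share of all genes. Clade b, in 2 clusters, had counts below those of all genes at both ages.

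**Figure D1:**
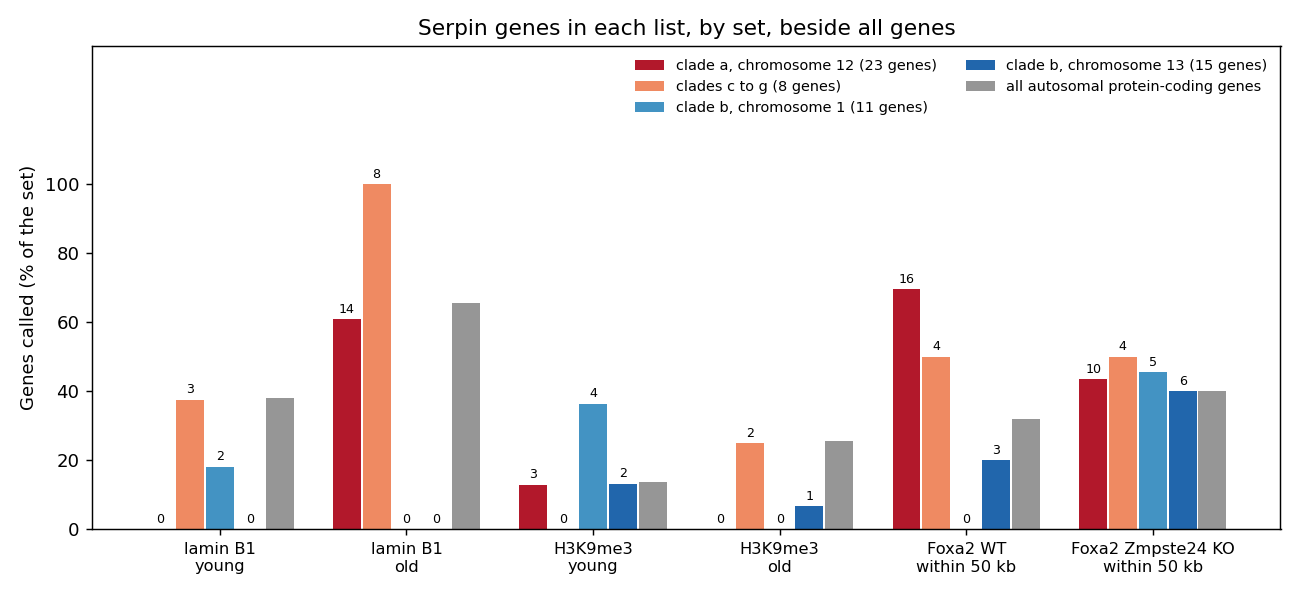
Share of genes called in each list (y axis, % of the set), for 4 sets of Serpin genes and for all 20807 genes (grey), with the number of genes called above each bar. Bars for lamin B1 and H3K9me3 count start sites inside a region and bars for Foxa2 count genes with a site in the gene body or within 50 kb. Clade b has no bar for lamin B1 in old livers, where clades c to g reach 8 of 8 genes and clade a reaches 14 of 23.

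The clade a cluster on chromosome 12 spans 799.5 kb, from Serpina10 to Serpina3n, and no young lamin B1 domain came closer to it than 1185.7 kb. In old livers a domain of 1160 kb at chr12:103960001-105120000 covered 14 of the 23 genes over their whole length. These were Serpina11, Serpina9 (centerin of germinal centre B cells), Serpina12 (vaspin, an adipokine), Serpina5 (protein C inhibitor) and the 10 Serpina3 genes, the mouse counterparts of antichymotrypsin. None of the positions of this domain was covered in young livers. The domain also held the start sites of Gsc, Dicer1, Clmn, Syne3 and Glrx5, so the Serpin genes made up 14 of its 19 start sites.

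The 9 genes outside the domain included Serpina10 (the protein Z-dependent inhibitor of coagulation factor X), Serpina16 and Serpina1f. Serpina6 (corticosteroid-binding globulin, which carries glucocorticoids and inhibits no protease) was another. The remaining 5 were the alpha-1 antitrypsin genes Serpina1a to Serpina1e, named after an inhibitor of neutrophil elastase. All 9 lay between the domain and another old domain that ended at 103590000, 24.8 kb before Serpina10. The edge fell between Serpina1e and Serpina11. Serpina1e began 1.0 kb outside, less than the 10 kb step of the calls, and with 5 kb added on either side of its start it would count as inside. The greatest distance from an old domain was 173.6 kb, at Serpina1d.

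**Figure D2:**
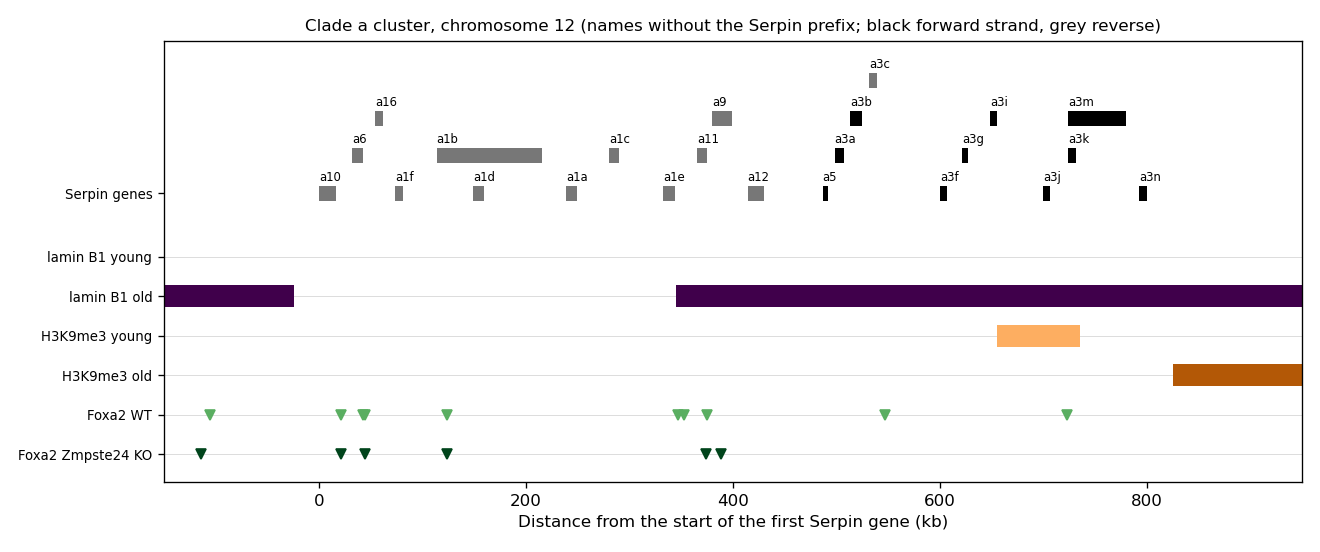
Map of the clade a cluster, with distance from the start of Serpina10 in kb on the x axis and, from top to bottom, the genes (black forward strand, grey reverse strand) and the regions of the 6 lists (bars for domains, triangles for Foxa2 sites). The old lamin B1 domain begins between Serpina1e and Serpina11 and runs past the end of the cluster, and no young domain is seen.

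The genes of this cluster are near copies of each other in part, and the authors kept only uniquely aligned reads. Within 2.5 kb of the start site, 43.7% to 70.2% of all words of 40 bases occurred once in the genome for Serpina1a to Serpina1e, against 97.1% to 100.0% for the other 4 genes outside the domain and 76.1% to 99.2% for the 14 genes inside it. With words of 60 bases the ranges were 62.2% to 83.1%, 99.5% to 100.0% and 80.1% to 99.7%. Reads of these lengths were the ones sequenced. Near the start site, low uniqueness thus went with absence from the domain at the antitrypsin genes but not at Serpina10, Serpina6, Serpina16 and Serpina1f. Over the gene body Serpina10 was low too, at 63.9% (40 bases) and 66.0% (60 bases). The lowest gene inside the domain was Serpina3g, at 77.0% and 88.5%, while Serpina6, Serpina16 and Serpina1f were at 99.4% or more. The part of uniqueness in the position of the edge was not tested.

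The 8 genes of clades c to g all had their start site in an old lamin B1 domain. Serpinc1 (antithrombin, the main inhibitor of thrombin and factor Xa) had its start covered at both ages and lay in a young domain of 480 kb at chr1:160720001-161200000 and in an old domain of 110 kb at chr1:160970001-161080000 inside it. Serpind1 (heparin cofactor II, a thrombin inhibitor) likewise lay in 970 kb of young domain (chr16:16960001-17930000) and in 410 kb of old domain (chr16:17030001-17440000). At these genes the old domain was the shorter one.

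The other 5 genes were inside in old livers only. Serpine2 (protease nexin 1, a cell-surface inhibitor of thrombin and plasminogen activators) lay in chr1:79570001-79880000 and Serping1 (C1 inhibitor, which restrains complement and plasma kallikrein) in chr2:84470001-85270000. Serpinf1 (pigment epithelium-derived factor, an inhibitor of vessel growth) and Serpinf2 (antiplasmin, the main plasmin inhibitor) shared chr11:75100001-77190000. Serpine3 was covered over 57.2% of its length, start included, by chr14:61670001-62680000. In young livers these 5 genes were 84.2 kb (Serpine2) to 787.8 kb (Serpine3) from the nearest lamin B1 domain. Serpinh1 (HSP47, a collagen chaperone of the endoplasmic reticulum) was also inside in old livers only, in chr7:98660001-100220000, whereas Serpini1 (neuroserpin) and Serpini2 were outside at both ages, 3336.5 and 3709.9 kb from the nearest old domain.

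Clade b had no old lamin B1 domain near either cluster. Distances from a clade b gene to the nearest old domain ran from 691.2 to 1484.0 kb, with a median of 1109.3 kb. In the chromosome 1 cluster, a young domain of 120 kb at chr1:107480001-107600000 covered all of Serpinb2 (plasminogen activator inhibitor 2) and the start and 48.8% of Serpinb8. No position of it was covered in old livers. These were the clade b start sites lost from the lamin B1 list with age, opposite in direction to the clade a and c to g genes. On chromosome 13, the 15 genes were 1727.2 to 2635.6 kb from a young domain and 932.1 to 1484.0 kb from an old one, so no lamin B1 domain of either age came closer to this cluster than 932.1 kb.

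**Figure D3:**
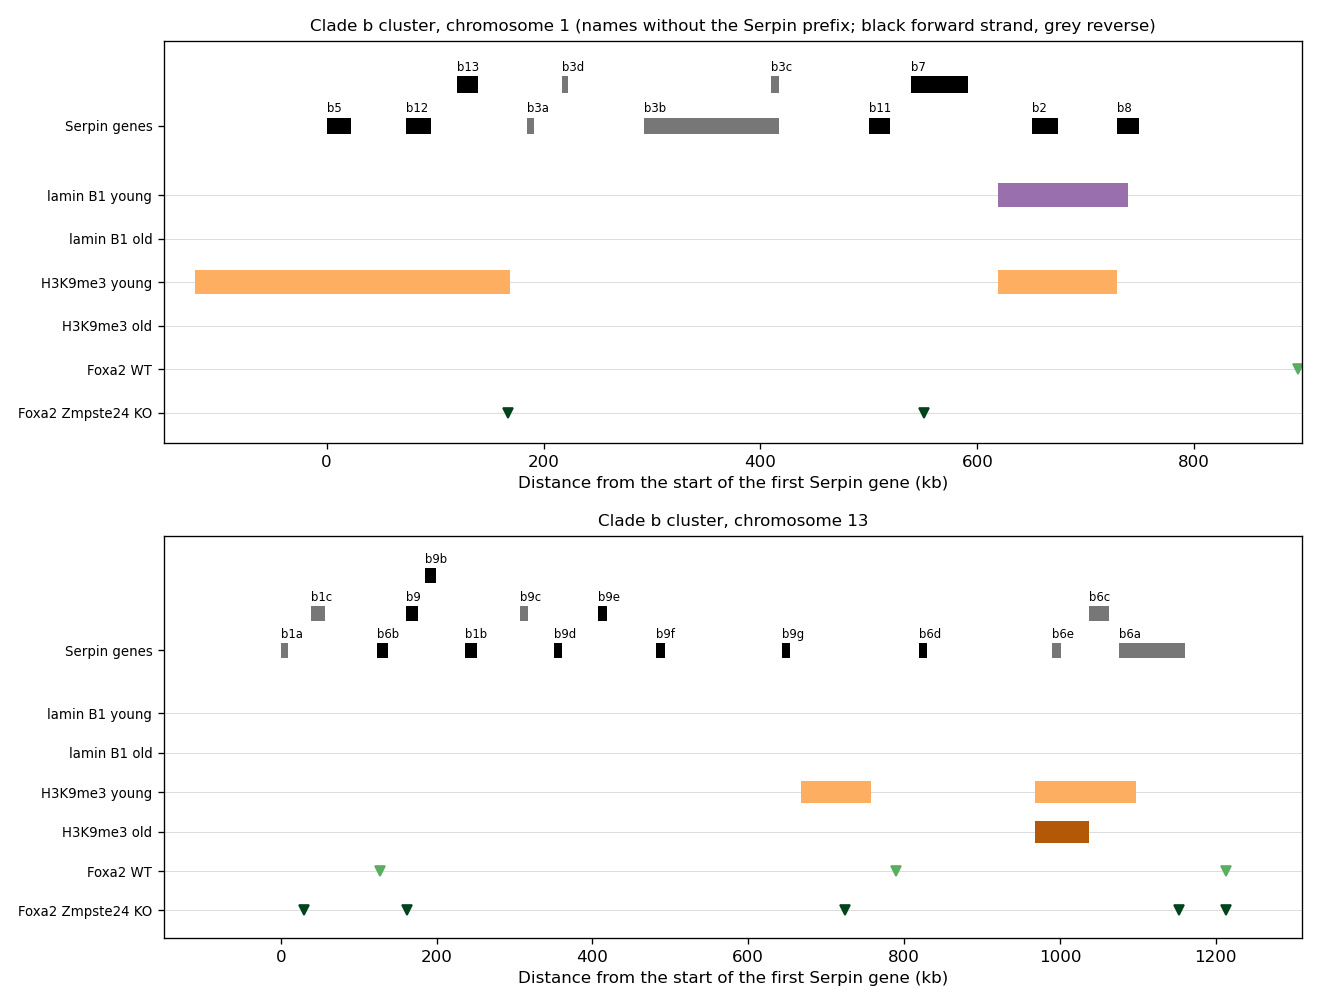
Maps of the clade b clusters on chromosomes 1 (top) and 13 (bottom), with distance from the start of the first gene in kb on the x axis, drawn as for clade a. A lamin B1 bar is seen only in young livers at Serpinb2 and Serpinb8, and the H3K9me3 bars of the chromosome 1 cluster are seen only in young livers.

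H3K9me3 was distributed differently from lamin B1. In young livers 6 of 26 clade b start sites and 3 of 31 start sites of clades a and c to g lay in an H3K9me3 region (13.6% of all genes), and in old livers 1 of 26 and 2 of 31 (25.7%). Over all genes the share was higher in the old list, while over the 60 Serpin genes it went from 10 start sites in young to 4 in old livers. The study obtained more H3K9me3 reads in old than in young livers, and the part of this depth in the counts was not tested. Start sites marked in young livers only were 5 of 26 in clade b and 3 of 31 in clades a and c to g (6.19% of all genes), marked in old livers only 0 and 2 (18.2%), and marked at both ages 1 and 0 (7.45%). By gene body, 7 of 26 clade b genes and 3 of 31 genes of clades a and c to g touched a young region (17.4%), and 2 of 26 and 2 of 31 touched an old region (31.2%).

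On chromosome 1, a young region at chr1:106740001-107030000 covered Serpinb5 (maspin of epithelial cells), Serpinb12 and Serpinb13 entirely, with the neighbouring start sites of Kdsr and Vps4b. Another at chr1:107480001-107590000 covered Serpinb2 and lay wholly inside the young lamin B1 domain there, 91.7% of which it filled. Neither overlapped a region of the old list, where the nearest H3K9me3 region was at least 1031.2 kb away from any gene of the cluster. Serpinb2 was the only Serpin gene whose start lay in both a lamin B1 domain and an H3K9me3 region in young livers. On chromosome 13, a young region at chr13:33810001-33940000 covered Serpinb6e and Serpinb6c and 26.0% of Serpinb6a. In old livers it was shortened to chr13:33810001-33880000, which kept Serpinb6e and 0.7% of Serpinb6c. Serpinb6e was the only Serpin gene with its start marked at both ages.

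In the clade a cluster, a young H3K9me3 region of 80 kb at chr12:104270001-104350000 held the start sites of Serpina3j, Serpina3k and Serpina3m. It lay inside the stretch that the old lamin B1 domain covered, and it overlapped no region of the old list. The gene model of Serpina3m begins at the same base as that of Serpina3k and has another annotated start at 104387164, outside this region, so these 3 start sites are 2 positions. An old region at chr12:104440001-104720000 began 25.7 kb past Serpina3n and touched no member. In old livers the start sites of Serpine3 and Serpinh1 lay in both lists. The H3K9me3 regions there were chr14:62580001-62680000 and chr7:99260001-99480000, each entirely inside an old lamin B1 domain. Serpini2 was covered by young H3K9me3 alone, and Serpini1 over 50.6% of its body but not at its start.

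**Figure D4:**
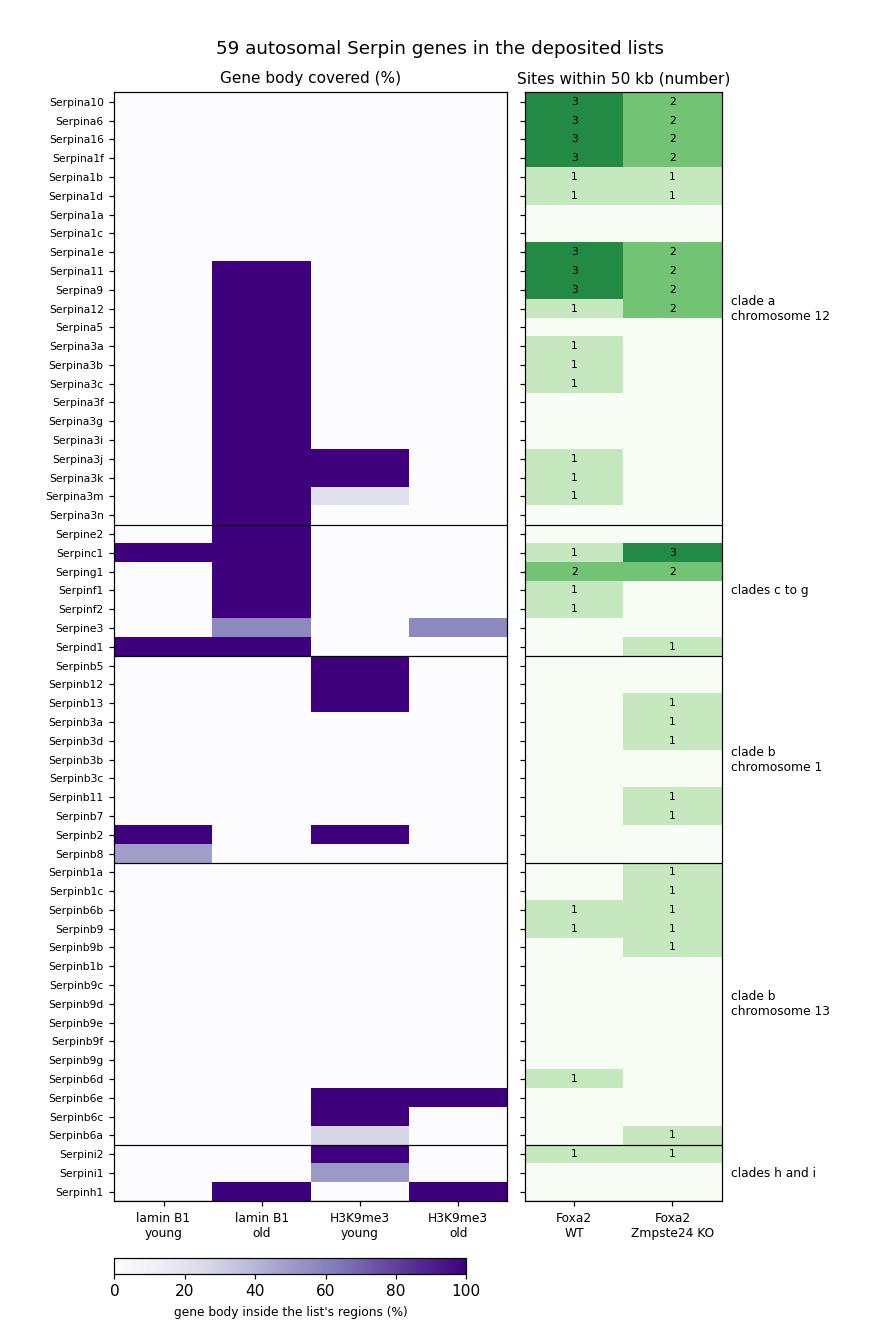
The Serpin genes described by name (59 rows, by set and position) with the share of its body inside the lamin B1 and H3K9me3 lists (left, % by colour) and the number of Foxa2 sites in the body or within 50 kb (right). The old lamin B1 column is filled from Serpina11 to Serpina3n and over clades c to g, and is empty over clade b.

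For Foxa2, a gene was counted when a site overlapped its body or the 50 kb on either side. In WT livers this held for 20 of 31 genes of clades a and c to g and 3 of 26 clade b genes (32.0% of all genes), and in Zmpste24 KO livers for 14 of 31 and 11 of 26 (40.2%). Genes with a site in both genotypes numbered 12 of 31 and 2 of 26 (20.2%). The genes shared few distinct sites, 16 in WT and 18 in KO livers, of which 5 overlapped between genotypes. That is 31.2% of the WT and 27.8% of the KO sites near Serpin genes, beside 27.3% of 4912 WT and 16.8% of 8051 KO sites on all autosomes. By locus the contrast between the clades was not seen, since 4 of 8 loci of clades a and c to g and 1 of 2 clade b loci had a WT site, and 5 of 8 and 2 of 2 had a KO site. The counts also depended on the window. With the body alone they were 4 (WT) and 5 (KO) in clades a and c to g and 1 and 3 in clade b, and with 10 kb on either side 11 and 9, and 1 and 4. The order of WT and KO in clades a and c to g thus turned by locus and with the body alone, and also with sites at or above the median width (4 and 9).

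On chromosome 12, 9 WT and 5 KO sites lay within 50 kb of a clade a gene, and 4 of them were shared. Distances are from the middle of a site to the start of the gene. The shared sites were 4.3 kb upstream of the start of Serpina10 (WT chr12:103635352-103636203), 2.1 kb upstream of Serpina6 (WT chr12:103659130-103659581), at a start of Serpina1b (WT chr12:103738131-103738606) and in Serpina11, 0.6 kb into the gene (WT chr12:103988998-103989671). Sites in WT only were at the start of Serpina6 (chr12:103657083-103657727), 2.7 and 8.0 kb upstream of Serpina1e (chr12:103961332-103962116 and chr12:103966711-103967221), 7.4 kb upstream of Serpina3c (chr12:104160811-104161796) and 1.5 kb upstream of Serpina3k and Serpina3m (chr12:104336708-104337313). The only KO site without a WT counterpart was in Serpina9, 10.8 kb into the gene (chr12:104002692-104003274). The 6 Serpina3 genes with a WT site nearby, Serpina3a, Serpina3b, Serpina3c, Serpina3j, Serpina3k and Serpina3m, had no KO site within 50 kb, and their nearest KO site was 109.5 to 335.2 kb away.

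Set beside the lamin B1 list of old livers, 4 of the 5 WT-only sites of this cluster and the KO-only site lay within the old domain, while 3 of the 4 shared sites lay outside it. The animals, ages and genotypes of these lists differ, so these are positions side by side. Old domains held the start sites of 65.7% of all genes. The share of all autosomal Foxa2 sites in old domains was not computed, and the counts here all depend on the same domain edge.

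The sequences under these sites were read from the reference genome (GRCm38.p6) and searched for the forkhead core TGTTTAC on both strands (GTAAACA when read on the other strand). The core occurred in 6 of 16 WT sites and 6 of 18 KO sites near Serpin genes, beside 27.8% of all autosomal WT sites and 23.4% of all KO sites. All windows from here on are given 5′ to 3′ on the forward strand unless stated, in lower case with the core in capitals. The first set shows clade a sites with a core. They are the WT-only site at Serpina6 (window chr12:103657213-103657313, which starts at the base next to the transcription start at 103657212 of this reverse-strand gene), the WT-only site upstream of Serpina1e (window chr12:103966904-103967024), the shared site in Serpina11 (window chr12:103989185-103989305) and the KO-only site in Serpina9 (window chr12:104003170-104003274).
Serpina6, WT only: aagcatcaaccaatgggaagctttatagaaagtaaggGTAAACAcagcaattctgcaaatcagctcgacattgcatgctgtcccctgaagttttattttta
Serpina1e, WT only: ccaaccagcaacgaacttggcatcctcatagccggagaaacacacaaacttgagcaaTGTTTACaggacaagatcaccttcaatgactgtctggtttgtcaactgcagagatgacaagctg
Serpina11, shared: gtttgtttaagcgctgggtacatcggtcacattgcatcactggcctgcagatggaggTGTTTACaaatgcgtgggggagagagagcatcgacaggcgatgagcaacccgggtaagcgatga
Serpina9, KO only: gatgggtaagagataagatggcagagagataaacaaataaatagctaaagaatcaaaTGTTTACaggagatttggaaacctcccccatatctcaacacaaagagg

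The core of the Serpina6 site is at 103657250 to 103657256, on the strand of the gene and just upstream of its start. The KO list had no site there, although it had the neighbouring one further upstream of Serpina6, which held no core in either list. Among the 4 shared sites of the cluster, the one in Serpina11 was the only one that held the core in both lists. At Serpina10 it fell within the wider KO call (chr12:103634880-103636347) and outside the WT call.

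The shared site at Serpina1b needs its annotation described. The GENCODE model of Serpina1b runs over 102.2 kb and across Serpina1d, so its outermost start, at 103830373, is far from the site. The site covers a shorter transcript start at 103738158 and the whole of the 250 bases that precede the RefSeq start (chr12:103738190-103738439, reverse strand). That promoter is printed on the strand of the gene because it was the only promoter with a Foxa2 site in both genotypes among the 51 Serpin genes with a promoter in the RefSeq table (GRCm38.p6). It holds no core.
Serpina1b promoter: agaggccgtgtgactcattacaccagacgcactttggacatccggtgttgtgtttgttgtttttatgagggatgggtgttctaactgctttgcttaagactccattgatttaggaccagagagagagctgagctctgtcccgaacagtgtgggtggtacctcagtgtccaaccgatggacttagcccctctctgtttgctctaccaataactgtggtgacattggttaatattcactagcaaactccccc

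The corresponding promoters of Serpina1a, Serpina1c and Serpina1d were 88.0%, 90.9% and 85.1% identical to that of Serpina1b in a global alignment, and none had a Foxa2 site in either list. The sequence before the RefSeq start of Serpina1e was 64.6% identical, had no Foxa2 site either and lay 4.2 kb from the nearest WT site. Of the words of 40 bases in the Serpina1b site, 56.8% (WT call) and 61.2% (KO call) occurred once in the genome. The part of repeated sequence in the lone call at Serpina1b was not tested. Over all 51 Serpin genes with a RefSeq promoter, 0 held the core in the 250 bases before the start, beside 489 of 15687 genes (3.12%). Serpina6, with a core just upstream of its GENCODE start, had no promoter in that table and is not among the 51.

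Among clades c to g, 4 WT and 7 KO sites were found within 50 kb. Serpinf2 had a WT-only site 0.6 kb into the gene (chr11:75438729-75439208), which also counted for Serpinf1. Serpind1 had a KO-only site across its start (chr16:17331200-17331534), and its promoter (chr16:17331121-17331370, forward strand), shown as the other RefSeq promoter of a Serpin gene that a Foxa2 site touched, holds no core.
Serpind1 promoter: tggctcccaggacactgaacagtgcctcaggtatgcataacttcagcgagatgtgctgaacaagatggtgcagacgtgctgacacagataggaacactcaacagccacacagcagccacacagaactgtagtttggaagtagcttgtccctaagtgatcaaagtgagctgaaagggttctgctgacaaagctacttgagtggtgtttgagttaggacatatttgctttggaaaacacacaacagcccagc

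At Serpinc1 a single WT site (chr1:161033903-161035175) and 3 KO sites were within 50 kb, none of them shared. The WT site lay 0.3 kb from the start of the neighbouring gene Zbtb37 and 28.0 kb from the Serpinc1 body, and 1 KO site (chr1:160996880-160997354) lay within Serpinc1. Serpine2 and Serpine3 had none in either genotype. The nearest start site belonged to a Serpin gene for 13 of 16 WT and 12 of 18 KO sites, so a site within 50 kb is not by itself a site of the Serpin gene.

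Serping1 had 2 sites within 50 kb in each genotype. A KO-only site at chr2:84755015-84756794 lay 8.6 kb from the gene body, beside 20.5 kb for the nearest WT site. The 2 WT sites were both at 2.6 kb from the start of the neighbouring gene Ube2l6 and on opposite sides of it. The site at chr2:84795985-84796546 was shared with the KO list and the site at chr2:84801235-84801592 was in WT only. They are shown because they proved to be inverted copies. A run of 176 bases was identical, from 84796192 to 84796367 on one strand and from 84801450 to 84801625 on the other, and the core lies within it. The windows are chr2:84796182-84796302 and chr2:84801515-84801592, both on the forward strand, so that the second reads as the reverse complement of part of the first.
Serping1 neighbour, shared: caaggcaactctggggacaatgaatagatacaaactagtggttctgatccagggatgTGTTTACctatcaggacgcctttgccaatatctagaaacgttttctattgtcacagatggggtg
Serping1 neighbour, WT only: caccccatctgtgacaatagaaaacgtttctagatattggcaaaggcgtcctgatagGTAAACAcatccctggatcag

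Of the words of 40 bases in these WT sites, 72.5% and 58.0% occurred once in the genome. The part of this repeat in the calls was not tested.

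In clade b, 2 WT and 5 KO sites lay within 50 kb, and none was shared. Both WT sites were in the chromosome 13 cluster, in Serpinb6b (chr13:32969120-32969935) and 29.7 kb upstream of Serpinb6d (chr13:33631342-33632147). The KO sites on chromosome 13 were between Serpinb1a and Serpinb1c (chr13:32870563-32872108), within Serpinb9 (chr13:33004557-33004879) and within Serpinb6a (chr13:33994494-33995390). On chromosome 1 they were past Serpinb13 (chr1:107027908-107028822) and within Serpinb7 (chr1:107411447-107412734). The first of these touched the young H3K9me3 region over Serpinb5, Serpinb12 and Serpinb13, and no other clade b site lay in a lamin B1 or H3K9me3 region. Serpinb9 is the inhibitor of granzyme B that guards lymphocytes and their target cells, and its site was the only clade b site that held the core (window chr13:33004696-33004810).
Serpinb9, KO only: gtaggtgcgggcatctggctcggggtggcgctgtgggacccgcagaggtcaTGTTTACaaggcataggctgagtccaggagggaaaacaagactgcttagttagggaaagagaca

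For the proteases that serpins restrain, a list of 20 genes of coagulation, fibrinolysis, complement and leukocyte granules was examined, 19 of them on autosomes. F3 (tissue factor), a cofactor rather than a protease, is counted in it. Start sites in a lamin B1 domain numbered 6 of 19 in young and 13 of 19 in old livers. In old livers only there were 7 (36.8%), close to the 32.2% of all genes. They were F3, F7 and F10 (tissue factor and its partners at the start of coagulation), Plat and Plau (the plasminogen activators), Plg (plasminogen) and Masp1 (of the lectin pathway of complement). F2 (prothrombin), F12, Proc and Masp2 were inside at both ages, as were the neighbours Elane and Prtn3, the neutrophil proteases (31.6%, against 33.5% of all genes). Elane and Prtn3 were also the only start sites of the list in old H3K9me3 (10.5%, against 25.7% of all genes). Foxa2 sites were within 50 kb of 11 of 19 genes in WT (57.9%) and 12 of 19 in KO livers (63.2%), against 32.0% and 40.2% of all genes. Neighbouring genes were counted singly, and no count by locus was made for this list. F11 and Klkb1, adjacent on chromosome 8, had 2 and 3 WT sites and 4 and 6 KO sites. F7 and F10, adjacent on chromosome 8, shared 3 WT sites and had no KO site, and C1ra and C1s1, adjacent on chromosome 6, shared 3 KO sites and had no WT site. The shares of the listed genes in lamin B1 were 31.6% and 68.4% in young and old livers, against 38.0% and 65.7% of all genes.

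GC content differed between the sets, and over all genes it was higher inside old lamin B1 domains than outside. Over the gene body with 50 kb on either side, the median was 45.5% for the clade a genes, 44.9% for clades c to g and 40.2% for clade b, and 44.6% for all genes. The median of all genes was 46.7% for those with a start site in an old lamin B1 domain and 40.6% for the rest. Clade b genes ran from 38.3% to 42.4%. Within the chromosome 12 cluster this order was not seen. Genes inside the old domain ran from 43.6% to 47.9% (median 45.2%) and genes outside it from 42.7% to 47.1% (median 45.8%). Serpine3 (40.7%) and Serpinc1 (41.5%) were inside an old domain at a GC content within the clade b range. The part of GC content in the difference between clades was not tested.

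**Figure D5:**
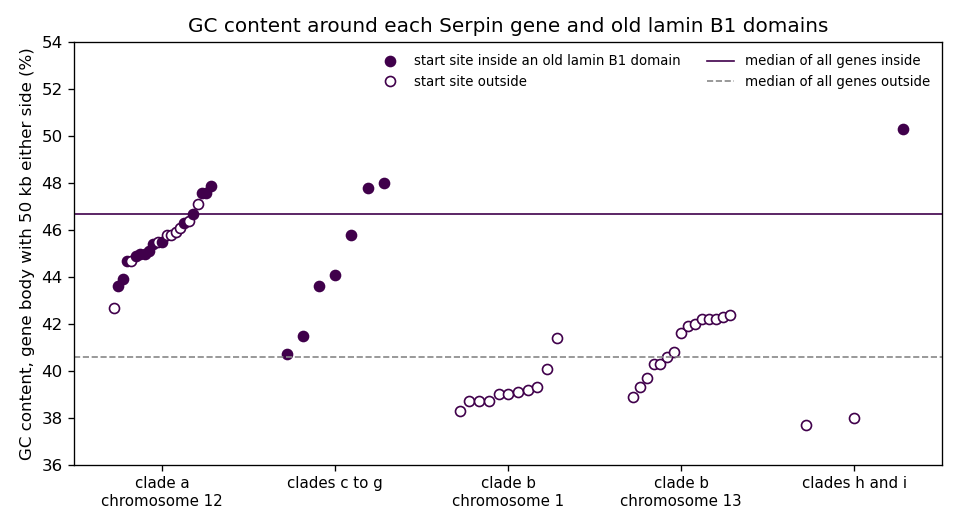
GC content of the gene body with 50 kb on either side (y axis, %, not starting at 0) for the same 59 Serpin genes by set, filled where the start site lies in an old lamin B1 domain and open where it does not. Lines give the medians of all genes inside (46.7%) and outside (40.6%) old domains, and filled and open points overlap in the clade a cluster.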

How the data were processed

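Per the study's methods, reads (40 and 60 bases, single-end) were aligned to mm10 with BWA, duplicates were removed, uniquely aligned reads were kept and replicates were merged. The authors called lamin B1 domains with Epic (windows of 10 kb) and Foxa2 sites with PeakSeq against input, after reducing the KO reads to the WT number. More lamin B1 reads were obtained in young than in old livers, without such a reduction. The authors held it unnecessary because the caller normalizes the data itself. For H3K9me3 more reads were obtained in old than in young livers. The caller of the H3K9me3 regions is not given in the sources used here beyond SICER in the submitters' processing notes, and the ages of these lists were taken from the lists' names. The deposited lists hold positions only, called on merged replicates, so neither depth nor replicate error is known per region. Columns assigned to no group numbered 0.

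Positions were intersected at 1 base or more with GENCODE vM21 genes in Python 3.11.15 with numpy 2.4.6, and plotted with matplotlib 3.10.9. All coordinates count from 1. Sequence came from RefSeq GRCm38.p6. The overlap and word code was tested on simulated data. No test was run, since the lists carry no spread between replicates. Clade a and c to i genes could all be named, and clade b genes with a nearby Foxa2 site or a state unlike their neighbours. Other clade b genes were named after their values were seen. The members and lists were chosen with earlier results of these data known. H3K9me2 was not analysed here, and 1 member enters the counts of its sets but is not reported singly or drawn. Alternatives to the window, overlap, start site and gene set were computed.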

Additional observations from a re-analysis of the deposited data

How the results depend on the processing

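No paired analysis was possible because the lists hold merged replicates, and for the same reason no replicate could be left out and no stricter score set. Of 68 alternative counts over 20 results, 41 were within 1.5 times the reported count. Counting each locus once gave 8 for lamin B1 starts of clades a and c to g in old livers, 1 for clade b in young livers, and 1 for young H3K9me3 bodies of clades a and c to g. In clade b it gave 2 for young and 1 for old H3K9me3 bodies. For Foxa2 it gave 4 (WT) and 5 (KO) loci in clades a and c to g and 1 and 2 in clade b. Requiring 50% of the body left 1 clade b gene in young lamin B1 and 1 in old H3K9me3.

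The Foxa2 counts depended on the window. In clades a and c to g, WT and KO counts were 11 and 9 with 10 kb, 4 and 5 with the body alone, 9 and 7 when the gene had to own the closest start site, and 4 and 9 with sites at or above the median width. In clade b they were 1 and 4 with 10 kb, 6 and 17 with 100 kb, and 1 and 3 with the body alone. The closest start site left 4 clade b genes in KO livers, and wide sites left 0 in WT livers. KO exceeded WT in clade b under each of these windows, but the clade b genes had only 2 distinct WT and 5 distinct KO sites within 50 kb. The KO list was also the longer one, and within 50 kb 40.2% of all genes had a KO site against 32.0% with a WT site. Shares of all genes under the other windows were not computed. In clades a and c to g, WT did not exceed KO with the body alone, with wide sites or by locus. The count of 0 clade b genes in old lamin B1 could not change under the alternatives run for it. The nearest old domain was at least 691.2 kb from any clade b gene.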
